A study of Mus musculus with 24 samples.

Results

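The genes described here are Ighm, Vpreb1, Igll1, Cd79a, Blnk, Rag1, Rag2 and Dntt, which were taken by symbol from the allelic count table of the B cell clones Abl.1 and Abl.2. All 8 of the 8 listed symbols were found among the 37315 genes of the table, and all 8 passed a minimum of 20 allelic counts pooled over the clone libraries, as did 13764 genes in all. Abl.1 and Abl.2 are Abelson lymphoblastoid cell lines, each a single clone, from females of the cross 129S1/SvImJ x CAST/EiJ, and both were in growth medium under a control treatment. Each clone has 2 SMARTseq libraries from 10 ng of RNA, and both Abl.2 libraries were sequenced in a second run. For contrast, RNA of 1 freshly collected kidney of an adult female F1 mouse of the same cross gave 6 libraries in each of 3 groups (NEBNext with 100 ng, SMARTseq with 10 ng and SMARTseq with 100 pg of RNA). The question put to the clones was which of these genes use 1 of their 2 alleles, and whether it is the same allele in both clones. Libraries of a clone are replicate preparations, so tests are set against the spread between preparations. Each test compares these 2 clones, not B cells of the cross in general.

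A precursor B cell that has rearranged its heavy chain locus displays the Ighm product with a surrogate light chain made of Vpreb1 and Igll1, and the complex signals through Cd79a and the adaptor Blnk. Rag1 and Rag2 together form the recombinase that cuts the antigen receptor loci, and Dntt (terminal transferase) adds untemplated nucleotides at the joints. Heavy chain loci are subject to allelic exclusion, by which a B cell makes its heavy chain from 1 rearranged allele, and Abelson virus transforms cells at this precursor stage.

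Allelic imbalance (AI) is the number of counts in the maternal column divided by all allelic counts of the gene, so that 0.5 means equal use and 1 means maternal counts alone. The study's methods give 129S1 as the maternal strain, but in the pooled kidney libraries the imprinted genes Peg3 and Igf2, known to be expressed from the paternal allele, had an AI of 0.9995 and 0.998, and Cdkn1c, known to be expressed from the maternal allele, had 0.00930. Of 9 imprinted genes with at least 50 kidney counts, 9 had more counts in the column opposite to the known parent, Phlda2 by little (AI 0.460). Maternal and paternal below therefore mean the columns, not the parent. A count is an allele-assigned read at a SNP, which makes levels of different genes incomparable. Levels were tested only within a gene. The sums over marker genes below describe each list alone and do not rank the lists. The clone libraries held between 19213150 and 22410835 counts and the kidney libraries between 6138693 and 6702351. The quality correction coefficient (QCC), the factor by which AI differed between 2 libraries of 1 clone beyond binomial sampling, was 2.51 for Abl.1 and 2.15 for Abl.2. Tests of AI therefore divided the counts by the square of QCC, 6.30 and 4.63. They used a proportional test of these binomial counts with Bonferroni correction at 0.05 over all genes with at least 10 counts in each library. QCC is 1 value per clone fitted over all genes, so these p-values do not use the spread of the single gene between its libraries.

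The B lineage label was checked on 8 marker genes, which all had at least 10 counts in every clone library, with a summed level of 5451 to 6004 CPM, counts scaled to the total of the library, in Abl.1 and 7146 to 7303 in Abl.2. Of that sum, Vpreb3 gave a mean of 3134 CPM in Abl.1 and 2802.5 in Abl.2. Pax5 gave only 1.18 and 2.25 CPM. Of 8 markers of kidney tubule and glomerulus, all were at 0 in Abl.1, and in Abl.2 only Umod (8.58 CPM) and Slc34a1 (3.49 CPM) had 10 counts in both libraries. T lineage markers summed to at most 17.3 CPM and erythroid markers to at most 2.38 CPM in the clones, myeloid markers to between 183 and 309 CPM (Lyz2 132.6 in Abl.1 and 303 in Abl.2, Csf1r 36.3 and 0.0902, Cd14 17.6 and 0), and plasma cell markers to between 65.1 and 146 CPM. Their part in the results was not tested. Chromosome 4 had a median AI of 0.999 in Abl.2 over 498 genes with at least 100 counts per library, against 0.510 in Abl.1, and the X chromosome had medians of 0.00128 and 0.00145. None of the 8 genes lies on either chromosome, and their own chromosomes 2, 7, 12, 16 and 19 had medians between 0.484 and 0.506 in Abl.1 and between 0.491 and 0.512 in Abl.2.

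Rag1 and Rag2 lie side by side on chromosome 2, as do Blnk and Dntt on chromosome 19 and Vpreb1 and Igll1 on chromosome 16. The RefSeq sequences of the 250 bases before the start are shown for the adjacent recombinase genes, for Dntt and for Igll1. The AI values of Rag2, Dntt and Igll1 did not overlap between the clones, while those of Rag1 did. Those of Ighm, Vpreb1, Blnk and Cd79a did not overlap either, though AI of Cd79a was not called different. With 2 libraries per clone, lack of overlap is a description and no test. Its share over all genes was not computed. The Rag2 window lies inside the gene B230118H07Rik, described below. The sequences are those of the GRCm38.p6 reference, 5′ to 3′ on the strand of the gene, and not of the strains of the cross. Capitals mark matches on either strand to the letters CCCNNGGG (the EBF motif), CANNTG (the E-box) and TGGGA (the Ikaros core), none of which overlap in these windows.
Rag2, chr2:101624462-101624711, plus strand: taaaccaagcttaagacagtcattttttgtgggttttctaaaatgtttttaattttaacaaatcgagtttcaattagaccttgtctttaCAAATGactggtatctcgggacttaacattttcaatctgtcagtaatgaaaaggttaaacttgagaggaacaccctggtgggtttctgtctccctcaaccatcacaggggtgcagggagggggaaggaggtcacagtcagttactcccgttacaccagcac
Rag1, chr2:101649533-101649782, minus strand: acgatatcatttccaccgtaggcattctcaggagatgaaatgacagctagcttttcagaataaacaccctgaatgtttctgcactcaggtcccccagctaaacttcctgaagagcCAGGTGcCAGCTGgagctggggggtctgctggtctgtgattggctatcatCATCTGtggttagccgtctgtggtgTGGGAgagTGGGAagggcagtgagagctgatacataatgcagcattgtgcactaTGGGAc
Dntt, chr19:41029025-41029274, plus strand: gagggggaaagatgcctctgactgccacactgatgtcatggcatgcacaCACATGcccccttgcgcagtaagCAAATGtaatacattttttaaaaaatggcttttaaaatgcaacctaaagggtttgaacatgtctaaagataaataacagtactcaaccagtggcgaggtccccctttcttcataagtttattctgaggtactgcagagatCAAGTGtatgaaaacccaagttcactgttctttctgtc
Igll1, chr16:16863986-16864235, minus strand: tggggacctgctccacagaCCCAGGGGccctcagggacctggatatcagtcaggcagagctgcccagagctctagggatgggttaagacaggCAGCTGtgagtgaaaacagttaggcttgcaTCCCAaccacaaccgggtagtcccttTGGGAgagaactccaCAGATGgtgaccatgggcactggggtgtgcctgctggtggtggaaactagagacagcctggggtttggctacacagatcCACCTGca

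The Rag2 window held a single match, an E-box. The Rag1 window held 3 E-boxes and 3 Ikaros cores, Dntt held 3 E-boxes, and Igll1 held 1 EBF match, 3 E-boxes and 2 Ikaros cores. Over the windows of 32851 RefSeq promoters of the same length, 11.8% held the EBF letters, 66.2% an E-box and 55.1% an Ikaros core. The table of RefSeq promoters matched 7 of the 8 genes.

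None of the 8 genes met the criterion for use of 1 allele, an AI of at most 0.1 or at least 0.9 in each library of the clone together with a QCC-corrected difference from 0.5. By the same criterion 7.24% of 11196 genes tested used 1 allele in Abl.1 and 13.0% of 11228 in Abl.2. On autosomes other than chromosome 4 these shares were 5.62% and 5.80%. The gene closest to the criterion was Rag2, for which all counts of Abl.1 were maternal. Its counts there were too few for the QCC-corrected test to pass at any AI. For Rag2 in Abl.1 the criterion could thus not be met. AI differed from 0.5 for 5 of the 8 genes in Abl.1 (22.8% of all genes tested) and for 5 of 8 in Abl.2 (30.0%). Between the clones AI differed for 5 of 8 genes, Ighm, Vpreb1, Igll1, Blnk and Dntt, where 19.0% of the 10068 genes tested were called. Smaller differences pass these tests at higher counts, and the shares were not matched for counts.

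**Figure D1:**
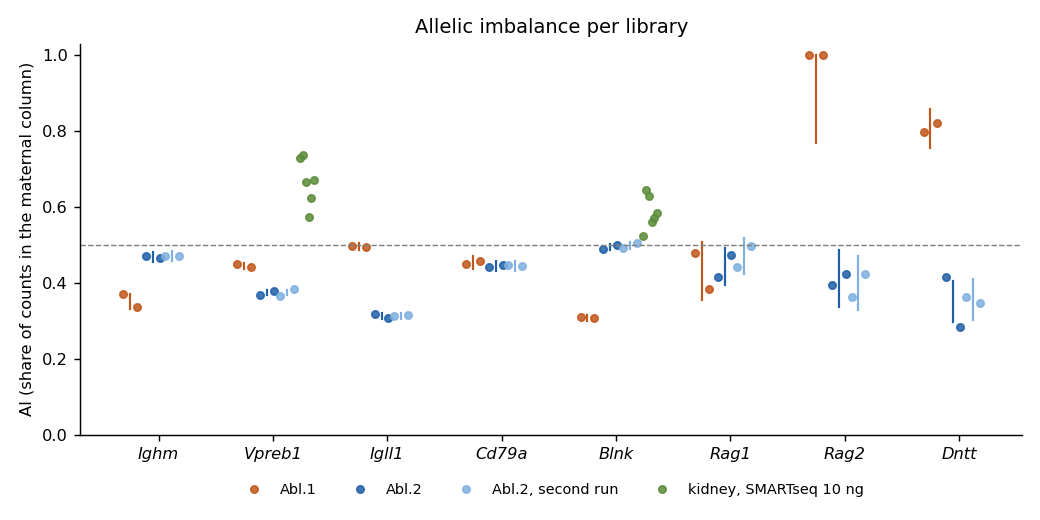
AI (share of counts in the maternal column, 0 to 1) of each gene by library, with a point per library or run and a vertical line for the 95% QCC-corrected Wilson interval of the pooled counts; kidney SMARTseq 10 ng libraries are shown where each had at least 20 counts. Rag2 in Abl.1 sits at 1 in both libraries and Dntt at 0.799 and 0.822, while every other point of a clone lies between 0.284 and 0.505.

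Rag2, the partner subunit that Rag1 needs for cleavage, spans positions 101624718 to 101632529 of chromosome 2 on the plus strand (GRCm38). It had 26 and 54 counts in the Abl.1 libraries, all in the maternal column, which gave an AI of 1 in both. In Abl.2 it had 347 and 396 counts, with an AI of 0.395 and 0.424. The AI values of the clones did not overlap. With 0 of 80 counts paternal in Abl.1, a paternal share of up to 3.75% is allowed by counting error alone, but after QCC correction the 80 counts weighed as 12.7 and the 95% interval of AI reached down to 0.768. The difference of AI between the clones was -0.590, with a 95% interval of -0.663 to -0.345, and did not pass the QCC-corrected test over all genes (Bonferroni-adjusted p = 0.491). Rag2 in Abl.1 likewise did not pass against 0.5 (proportional test of binomial counts, unadjusted p = 0.000366 and Bonferroni-adjusted p = 1). An AI of 1 is the extreme value, so no split of these 80 counts could have passed that test. The edgeR allele fit, with adjustment by Benjamini-Hochberg and 26.4% of genes called, did call the difference (adjusted p = 0.000489), and so did the QCC-corrected test with Benjamini-Hochberg in place of Bonferroni (adjusted p = 0.000233, and 0.00124 for Abl.1 against 0.5). The proportional test without QCC correction called it as well, and under it Rag2 met the criterion for 1 allele in Abl.1, as 11.6% of genes did. In Abl.2 both alleles of Rag2 were read, and its AI was not called different from 0.5 (95% interval 0.337 to 0.488).

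The level of Rag2 was also far lower in Abl.1. After scaling of the libraries by TMM, it stood at 1.62 and 2.59 CPM in Abl.1 and at 14.4 and 15.9 in Abl.2, a log2 fold change of 2.83 ± 0.35 (SE, edgeR adjusted p = 0.00204). The maternal allele alone was 2.94 times higher in Abl.2 than in Abl.1. The paternal allele, at 0 counts in Abl.1, was higher in Abl.2 by about 110-fold or more, computed against a floor of 3 counts over both Abl.1 libraries. The floor takes counts as independent, and with QCC correction the bound would be lower. Rag2 was the only one of the 8 genes that was both called and changed at least 2-fold, where 36.3% of all genes did so.

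Rag1, which carries the active site of the recombinase, is the neighbour of Rag2, at positions 101638282 to 101649501 on the minus strand. It had 492 and 488 counts in Abl.1, with an AI of 0.478 and 0.383, and 996 and 907 counts in Abl.2, with an AI of 0.415 and 0.473. The AI values of the clones overlapped. The difference was 0.0118, with a 95% interval from -0.0798 to 0.101, and AI was not called different from 0.5 in either clone. Both alleles of Rag1 were thus read in Abl.1, in the libraries where only maternal counts of Rag2 were found. Its TMM-scaled level was 30.6 and 23.4 CPM in Abl.1 and 41.2 and 36.3 in Abl.2, a log2 fold change of 0.52 ± 0.22 that was not called (edgeR adjusted p = 0.0993).

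The gene B230118H07Rik, named here after its values were seen, spans positions 101560781 to 101649532 of the minus strand and holds both recombinase genes within it. The study's methods leave out exon stretches that belong to more than 1 gene. They do not say that strand was used in counting. Whether reads from introns of B230118H07Rik entered the counts of Rag2 or Rag1 was not tested. B230118H07Rik had 4645 and 3206 counts in Abl.1 with an AI of 0.793 and 0.740, and 417 and 449 counts in Abl.2 with an AI of 0.257 and 0.252. Its level was lower in Abl.2, by a log2 fold change of -3.65 ± 0.35 (edgeR adjusted p = 0.000813), and its AI differed by -0.517 (QCC-corrected Bonferroni-adjusted p = 2.53e-43). Of the 19 genes starting within 5 Mb of Rag2 that had at least 100 counts per library, all had a lower AI than Rag2 in Abl.1. Their median was 0.503 and their highest value 0.771, that of B230118H07Rik. Rag2 itself had fewer counts in Abl.1 than were asked of these genes, and no AI can exceed 1. Its QCC-corrected interval there reached down to 0.768.

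Dntt, at positions 41029275 to 41059523 of chromosome 19 on the plus strand, had 533 and 826 counts in Abl.1, with an AI of 0.799 and 0.822. In Abl.2 it had 688 and 691 counts, with an AI of 0.416 and 0.284. The clones favoured opposite alleles, and their AI values did not overlap. AI differed from 0.5 in Abl.1 (Bonferroni-adjusted p = 4.15e-16) and in Abl.2 (adjusted p = 0.00232), and the difference between the clones was -0.464 with a 95% interval of -0.533 to -0.384 (adjusted p = 2.24e-21, all QCC-corrected). Without Abl.2 replicate 2 the call against 0.5 in Abl.2 was lost (adjusted p = 1). In Abl.2 the 2 libraries were far apart for this gene, and the second run of the same libraries gave 0.363 and 0.346. Neither clone reached 0.1 or 0.9, and the less used allele still gave 254 of 1359 counts in Abl.1.

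The total level of Dntt was not called different, at 33.2 and 39.7 TMM-scaled CPM in Abl.1 and 28.5 and 27.7 in Abl.2 (log2 fold change -0.38 ± 0.20, edgeR adjusted p = 0.164). Its alleles moved in opposite directions. The maternal allele stood at 29.6 ± 4.29 CPM (SD, 2 libraries) in Abl.1 and at 9.84 ± 2.81 in Abl.2. The paternal allele stood at 6.86 ± 0.279 in Abl.1 and at 18.2 ± 2.26 in Abl.2, 2.66 times higher.

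Blnk, the adaptor that links the receptor to downstream kinases, lies next to Dntt at positions 40928927 to 40994535 on the minus strand, with the starts of both genes facing each other. It had 35914 and 47382 counts in Abl.1, with an AI of 0.309 and 0.307, and 27507 and 31656 counts in Abl.2, with an AI of 0.489 and 0.499. The difference of 0.187 had a 95% interval of 0.175 to 0.198 and was opposite in sign to that of Dntt (QCC-corrected Bonferroni-adjusted p = 3.88e-203). Blnk in Abl.1 favoured the paternal allele, where Dntt favoured the maternal one. Among the 55 genes starting within 5 Mb of Dntt with at least 100 counts per library, none had an AI above that of Dntt in Abl.1, and the median was 0.448, while 5 of the 54 around Blnk had an AI below that of Blnk.

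Blnk fell in Abl.2 by 0.91 on the log2 scale (SE 0.18, edgeR adjusted p = 0.0106). The maternal allele stood at 695 and 595 TMM-scaled CPM in Abl.1 and Abl.2, and the paternal allele at 1561 and 608, so the lower total lay on the paternal side. Without Abl.2 replicate 1 or 2 the log2 fold change was -0.83 and -0.98 and was no longer called. Those fits take the spread between libraries from the Abl.1 pair alone.

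**Figure D2:**
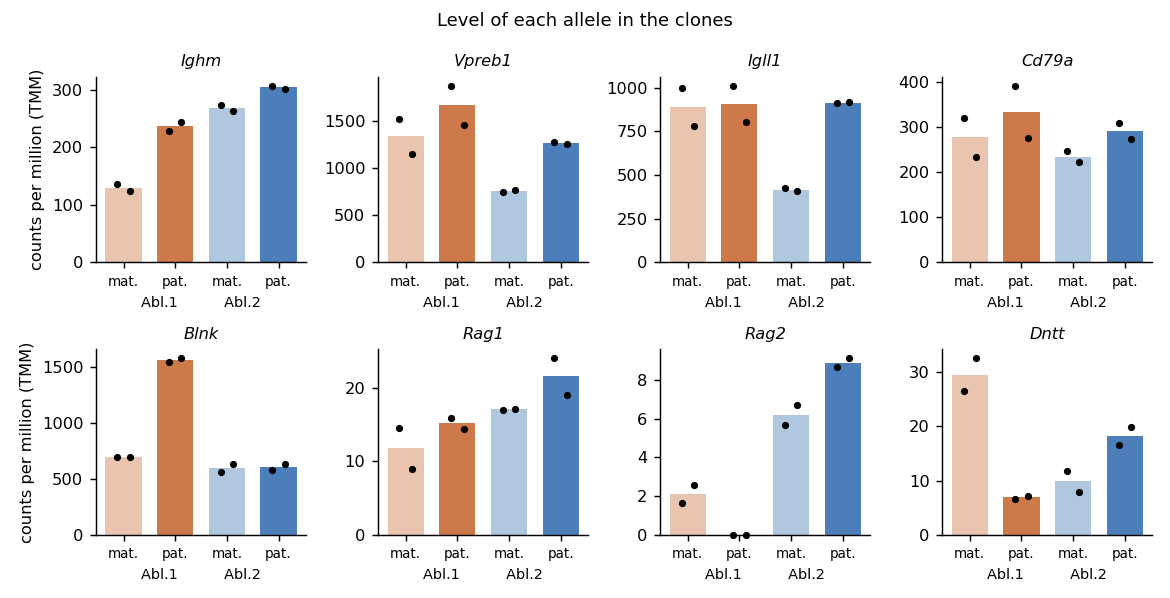
TMM-scaled CPM of the maternal (mat., light) and paternal (pat., dark) column in Abl.1 (orange) and Abl.2 (blue) for each gene; bars are means of the 2 libraries, which are drawn as points, and each panel has its own axis from 0. Paternal Rag2 is at 0 in Abl.1, paternal Blnk falls from 1561 to 608, and the alleles of Dntt change in opposite directions.

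The surrogate light chain genes are neighbours, Igll1 at positions 16860671 to 16863985 and Vpreb1 at 16868403 to 16870843 of chromosome 16, both on the minus strand. Igll1 had 32318 and 33080 counts in Abl.1 with an AI of 0.498 and 0.494, not called different from 0.5. In Abl.2 it had 32423 and 33033 counts with an AI of 0.317 and 0.307. The clones did not overlap, and the difference was -0.183 with a 95% interval of -0.196 to -0.171 (QCC-corrected Bonferroni-adjusted p = 4.64e-182). The paternal allele stood at 908 CPM in Abl.1 and 916 in Abl.2 on the TMM scale, and the maternal allele at 893 and 416.

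Vpreb1 had 54377 and 54281 counts in Abl.1 with an AI of 0.449 and 0.441, and 48491 and 50402 counts in Abl.2 with an AI of 0.368 and 0.379. The shift towards the paternal column was smaller than that of Igll1, at -0.0712 with a 95% interval of -0.0810 to -0.0613 (QCC-corrected Bonferroni-adjusted p = 1.74e-41). The closely related gene Vpreb2, also on chromosome 16, had an AI of 0.290 in Abl.1 and 0.221 in Abl.2. Reads of Vpreb1 and Vpreb2 may have been exchanged or lost, since only uniquely aligned reads were kept, so AI values of both are uncertain. Among 68 genes around either gene the median AI was 0.519 in Abl.1 and 0.497 in Abl.2, and in Abl.2 5 of the 68 around Igll1 had a lower AI than Igll1.

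Neither gene was called changed in level. The log2 fold change was -0.43 ± 0.20 for Igll1 (edgeR adjusted p = 0.128) and -0.57 ± 0.21 for Vpreb1 (adjusted p = 0.0692). The Abl.1 libraries were far apart on the TMM scale, at 3386 and 2606 CPM for Vpreb1 and 2012 and 1588 for Igll1, against 2006 and 2019 for Vpreb1 and 1341 and 1323 for Igll1 in Abl.2. DESeq2 called Vpreb1 lower in Abl.2 (adjusted p = 0.0176).

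Ighm encodes the constant region of the heavy chain of IgM and lies at positions 113418558 to 113422730 of chromosome 12 on the minus strand. It had 5851 and 7643 counts in Abl.1 with an AI of 0.372 and 0.335, and 14009 and 14075 counts in Abl.2 with an AI of 0.471 and 0.465. Both alleles of the constant region were thus read in each clone, with a paternal majority in both (QCC-corrected Bonferroni-adjusted p = 3.46e-39 and 0.00732). The clones did not overlap, and the difference was 0.117 with a 95% interval of 0.0930 to 0.141 (adjusted p = 6.39e-17). The call against 0.5 in Abl.2 was lost in the second run (AI 0.472 and 0.470, adjusted p = 0.0549) and with either library alone. The level of Ighm was higher in Abl.2 by a log2 fold change of 0.64 ± 0.17 (edgeR adjusted p = 0.0248), on both alleles, with the maternal allele 2.07 times and the paternal allele 1.29 times that of Abl.1. Without Abl.2 replicate 1 or 2 the log2 fold change was 0.63 and 0.67 and was no longer called. Those fits take the spread between libraries from the Abl.1 pair alone.

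Cd79a, which with Cd79b forms the signalling part of the receptor, lies at positions 24897381 to 24902197 of chromosome 7 on the plus strand. It had 11397 and 10596 counts in Abl.1 with an AI of 0.450 and 0.458, and 13393 and 12351 counts in Abl.2 with an AI of 0.443 and 0.447. The AI values of the clones did not overlap, but the difference was not called, and its 95% interval ran from -0.0303 to 0.0118. The level was not called different (log2 fold change -0.22 ± 0.22, edgeR adjusted p = 0.463). A slight excess of paternal counts was called in both clones (QCC-corrected Bonferroni-adjusted p = 0.000616 and 1.97e-12), and the Abl.1 call was lost without either library (adjusted p = 1 and 0.258).

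Abundance of the clones was compared with edgeR's quasi-likelihood test over 12492 genes, of which 46.4% were called, and 3 of the 8 genes were called, Ighm and Rag2 higher in Abl.2 and Blnk lower. The median of all tested genes was 0.38 higher in Abl.2 on a log2 scale of CPM and 0.01 after TMM scaling, so that fold changes here are relative to a shift of the whole library. More genes were called when 1 of the Abl.1 libraries was left out, and fewer when 1 of the Abl.2 libraries was. With 1 library left in a clone, the spread between libraries comes from the other clone alone. Calls gained or lost in such fits therefore depend on which pair remains.

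The 2 sequencing runs of the Abl.2 libraries gave close values. Over the 8 genes and 2 libraries, AI of the runs differed by 0.000135 to 0.0621, with the widest gaps in Dntt (-0.0529 and 0.0621 in the 2 libraries), and the ratio of CPM between runs lay between 0.854 and 1.13. The QCC between runs of a library was 1.62 and 1.60, above the value of 1 for independent counts.

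**Figure D3:**
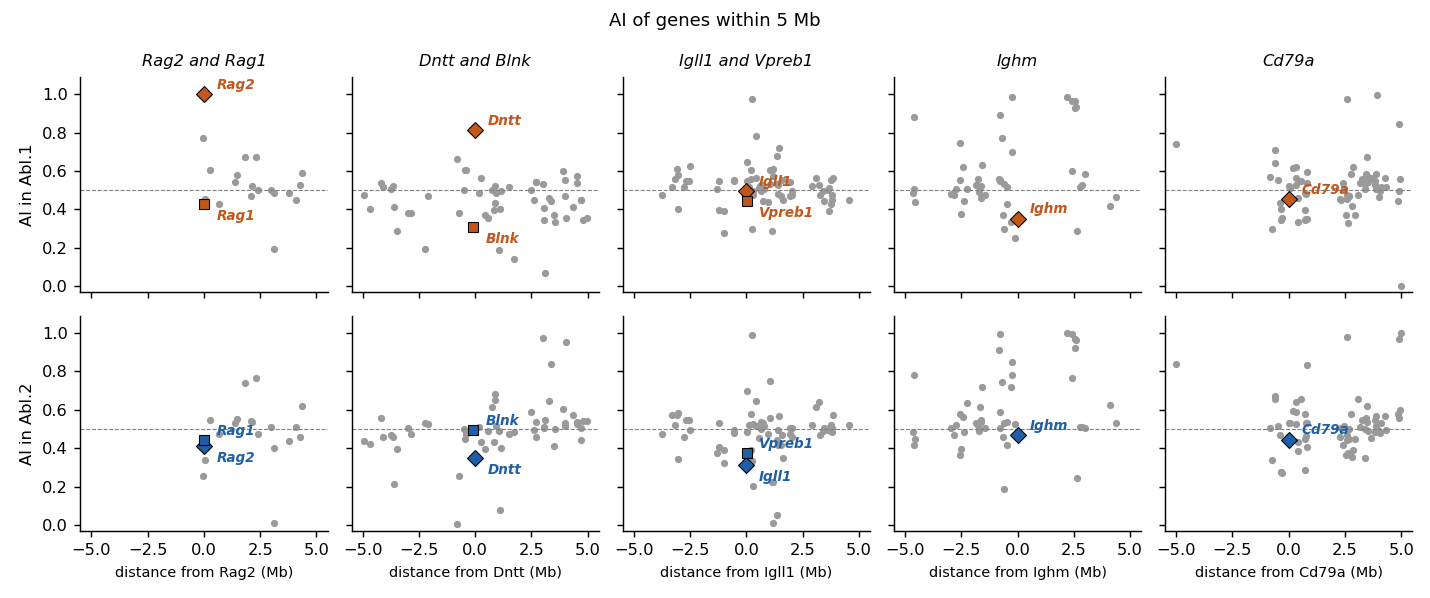
AI in Abl.1 (upper row) and Abl.2 (lower row) of genes with at least 100 counts in each clone library that start within 5 Mb, by distance in Mb from the first gene named above each column; grey points are neighbours and coloured diamonds and squares the named genes. Rag2, with fewer counts in Abl.1 than asked of neighbours, and Dntt lie above all neighbours in Abl.1 and below 0.5 in Abl.2. In the other columns the named genes lie among their neighbours.

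Other genes of the pathway were taken from 3 lists. The list of receptor signalling genes had 23 members, of which 20 could be tested for abundance, and 10 were higher and 2 lower in Abl.2, with a median log2 fold change of 0.50 against 0.01 over all genes. AI differed for 10 of its 20 tested genes, 5 in each direction. Over the 3 lists together 47.3% of 55 genes were called for abundance, against 46.4% of all genes. For AI 40.4% of 52 were called, against 19.0%. The shares for AI were not matched for counts, and smaller differences pass at higher counts. The called genes also include genes of chromosome 4, where the median AI in Abl.2 was 0.999, and the share without them was not computed. The tyrosine kinase Lyn (AI 0.459 in Abl.1 and 0.997 in Abl.2), the lipid kinase subunit Pik3cd (0.410 and 0.999), the coreceptor Cd72 (0.671 and 0.997) and the kinase Prkcb (0.461 and 0.992) used the maternal allele alone by the criterion in Abl.2 and both alleles in Abl.1. Cd79b, the partner of Cd79a, had an AI of 0.694 in Abl.1 and 0.50 in Abl.2, where Cd79a was not called. Vpreb3 had 0.403 and 0.300, Bank1 0.607 and 0.188, Plcg2 0.535 and 0.488, and the inhibitory receptor Cd22 0.325 and 0.402. The calls for Bank1 and Cd22 were lost in the second run (adjusted p = 1 for both) and without either Abl.1 library or Abl.2 replicate 2, and that for Plcg2 without any 1 of the 4 libraries (adjusted p from 0.0816 to 1).

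The list of recombination and end-joining genes had 18 members, all tested, of which 3 were higher and 1 lower in Abl.2, with a median log2 fold change of 0.06. AI differed for 3 of 18, where 19.0% of all genes were called, and abundance for 4 of 18, where 46.4% were. Polm, the polymerase most closely related to Dntt, used the maternal allele alone in Abl.1 (AI 0.994) and both in Abl.2 (0.406), and its level was higher in Abl.2 by a log2 fold change of 3.93 (edgeR adjusted p = 0.000148). Nbn, of the complex that senses broken ends, used the maternal allele alone in Abl.2 (0.999, against 0.388 in Abl.1). The Ku subunit gene Xrcc5 had 0.399 and 0.584.

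The list of transcriptional regulators had 18 names with 17 in the table, of which 8 were higher and 2 lower in Abl.2, with a median log2 fold change of 0.76. AI differed for 8 of 14 tested, where 19.0% of all genes were called, and abundance for 10 of 17, where 46.4% were. Ikzf1, which encodes Ikaros, used the maternal allele alone in Abl.1 (AI 0.998) and both in Abl.2 (0.513), with a log2 fold change of 3.23 (edgeR adjusted p = 0.000321). Bach2 (0.408 and 0.999) and Pax5 (0.840 and 1) used the maternal allele alone in Abl.2 and Lef1 the paternal one (0.277 and 0.013). The difference for Pax5, with 50 and 98 pooled counts, was not called. Myb had 0.903 and 0.404, the E2A gene Tcf3 0.626 and 0.369, Spi1 0.356 and 0.506, Runx1 0.552 and 0.698, and Irf8 0.763 and 0.691. The call for Myb was lost without Abl.1 replicate 2 (adjusted p = 0.305) and that for Runx1 without Abl.2 replicate 1 (adjusted p = 0.197). Of the 8 listed genes that used 1 allele in Abl.2, 6 lay on chromosome 4, where the median AI was 0.999, and the lists held 6 genes of that chromosome in all. Polm and Ikzf1, the only listed genes that used 1 allele in Abl.1, both lie on chromosome 11. Rad50 (AI 0.515), Ebf1 (0.364) and Cd79b (0.694) of that chromosome were read from both alleles in Abl.1. Their distances from Polm and Ikzf1 are not given here, nor is AI of the genes around Polm and Ikzf1. Whether Polm and Ikzf1 share a cause was not tested.

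**Figure D4:**
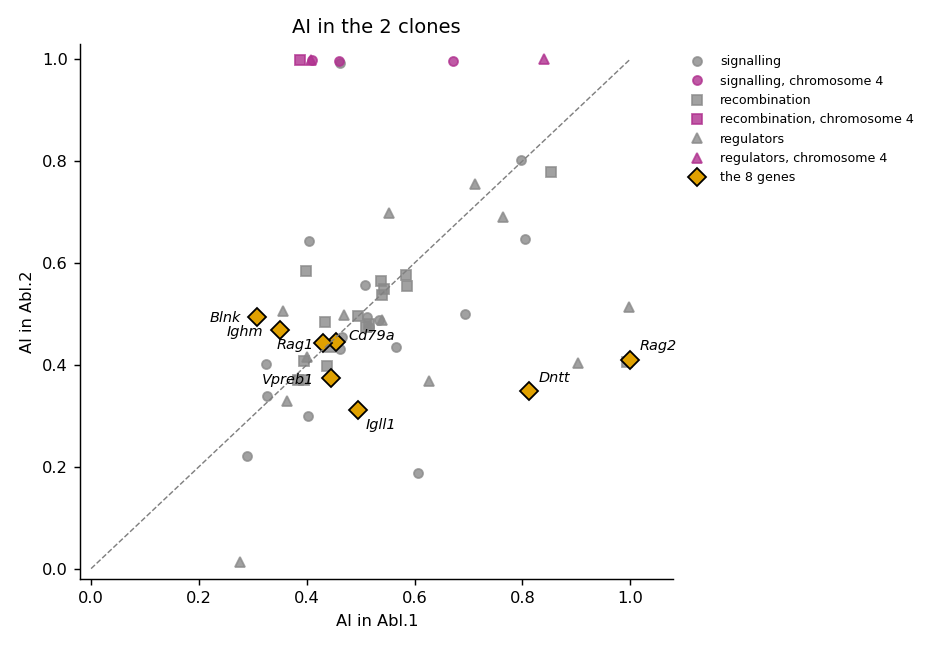
AI in Abl.1 (x) against AI in Abl.2 (y) of the 8 genes (diamonds) and of the listed genes tested in both clones, with listed genes on chromosome 4 in purple and equal AI on the dashed line. Listed genes of chromosome 4 lie along the top, at 0.997 or more in Abl.2, and Rag2 and Dntt lie at the right with an AI of 0.410 and 0.35 in Abl.2.

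Immunoglobulin segments and other constant regions gave 250 entries, of which 23 had at least 10 counts in each Abl.1 library and 98 in each Abl.2 library. The joining segment Ighj3, on the same chromosome as Ighm, had 60 and 116 counts in Abl.1, all paternal, and 1188 and 1327 in Abl.2, all maternal, and so used 1 allele in each clone and a different one (QCC-corrected Bonferroni-adjusted p = 3.22e-122). The constant region Ighg2b had 43899 and 62821 counts in Abl.1 with an AI of 0.269 and 0.237, and 440 and 263 counts in Abl.2 with an AI of 0.623 and 0.369. The light chain constant region Igkc had no count in Abl.1 and 3594 and 3239 in Abl.2, with an AI of 0.535 and 0.529. The variable segments Ighv1-84 and Ighv1-66 were read at an AI of 0.965 and 0.989 in Abl.1 and 0.967 and 1 in Abl.2. Variable segments form families of near copies, so their counts and alleles are uncertain. The call for Ighg2b was lost in the second run of Abl.2 (AI difference 0.0808, adjusted p = 1) and without Abl.2 replicate 1 (0.118, adjusted p = 1).

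Kidney served as tissue where these genes should have little RNA. All 8 genes were higher in the clones than in the SMARTseq 10 ng libraries (edgeR, adjusted p between 7.44e-16 and 4.34e-06), where 37.4% of 13991 genes were called higher in the clones. X-linked genes, none of which has a kidney count in the table, were not left out of that share. The share without them was not computed. Pooled over the 6 libraries, Rag1 and Rag2 had no count, Cd79a had 7, Dntt 9, Ighm 25 and Igll1 50. Rag2 was at 0 in all 18 kidney libraries. In a tissue sample, fewer cells of a type and less RNA per cell cannot be told apart. By the study's methods, kidney and clones also differed in sequencing machine, facility and read type (single-end for kidney, paired-end for the clones). These cannot be told apart from the tissue, in level or in AI.

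**Figure D5:**
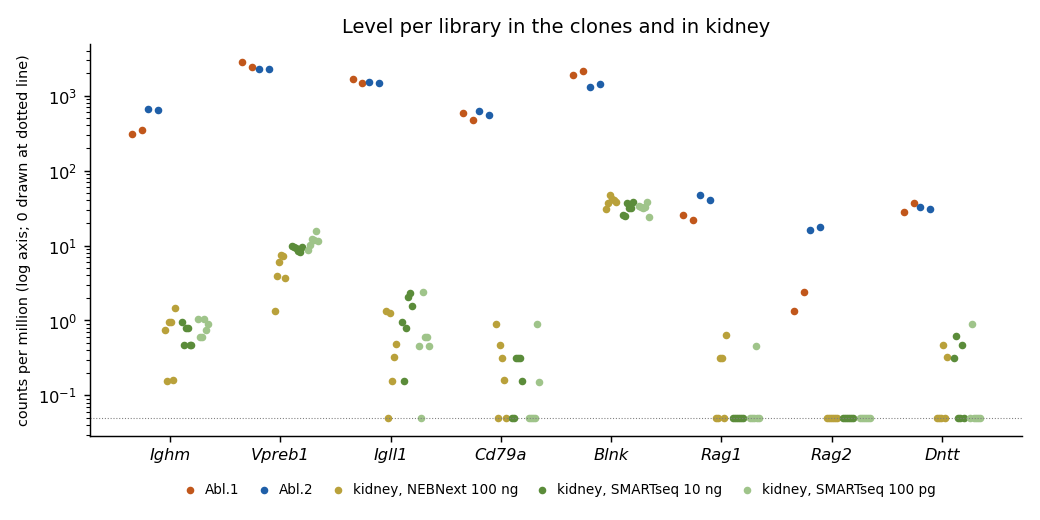
CPM of each gene in each library of the clones and of the 3 kidney groups, on a log axis with libraries at 0 drawn on the dotted line. Blnk and Vpreb1 are read in every kidney library, and Rag2 in none.

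The log2 fold change of clones over kidney was 10.86 ± 0.22 for Cd79a, 9.52 ± 0.22 for Igll1, 8.75 ± 0.12 for Ighm, 7.38 ± 0.09 for Vpreb1, 6.36 ± 0.36 for Dntt and 5.03 ± 0.11 for Blnk. Against a floor of 3 counts over the 6 libraries, Rag1 was higher by about 304-fold or more in Abl.1 and about 559-fold or more in Abl.2 on the CPM scale. Rag2 was higher by about 24.1-fold or more and about 218-fold or more. The median of all genes in this comparison was 0.80 on the CPM scale and -0.35 after TMM scaling, a shift far smaller than these differences.

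Blnk and Vpreb1 had enough kidney counts for AI. Blnk had 160 to 243 counts per SMARTseq 10 ng library (median 203) with an AI of 0.525 to 0.644 (median 0.578), above both clones. Pooled AI was 0.562 with NEBNext and 0.567 with SMARTseq 100 pg. Single libraries of Blnk ran from 0.5 to 0.6125 with NEBNext and from 0.475 to 0.636 with SMARTseq 100 pg. The SMARTseq 100 pg range overlapped the values of Abl.2. Vpreb1 had 53 to 63 counts per SMARTseq 10 ng library (median 60.5) with an AI of 0.574 to 0.738 (median 0.669), and pooled AI was 0.614 and 0.698 in the other groups. All 6 SMARTseq 10 ng libraries lay on the maternal side, and all clone libraries on the paternal side. The NEBNext libraries, with 9 to 48 counts, ranged in AI from 0.111 (9 counts) to 0.880, and 2 of the 6 lay on the paternal side. The difference between kidney and clones was not tested. Vpreb1 shares 108 bases with the gene Top3b on the plus strand, which had 155 to 212 kidney counts per library in this group. By the study's methods such shared stretches were left out of the counts. Strand was not used in counting as far as the study's methods say.

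The genes whose pattern of mean log2 CPM over Abl.1, Abl.2 and the 3 kidney groups was nearest to each of the 8, by Euclidean distance after centring, were compared over 10067 genes. They were Cenpa (0.347) and Cenpf (0.760) for Vpreb1, Ptprcap (0.671) and Aurkb (0.968) for Igll1, Gpr152 (0.127) and Gm9800 (0.20) for Blnk, Fancd2 (0.456) and Sgo1 (0.458) for Rag1, and Cdca7 (0.315) and Kcnk10 (0.389) for Dntt. For Ighm (Gpkow and Huwe1), Cd79a (Msn and Uba1) and Rag2 (BC065397 and Ints6l) they were X-linked, and none of the 2493 X-linked genes has a kidney count in the table. Among autosomal genes alone, a choice made after seeing this, they were Dtl (0.639) and Gm5847 (0.655) for Ighm, Sit1 (0.80) and Ptprcap (0.825) for Cd79a, and Lhx2 (0.269) and Tmem156 (0.448) for Rag2.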

How the data were processed

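RNA of the clones and of kidney was sequenced and aligned by the authors with STAR 2.5.4a to both parental genomes (GRCm38), and uniquely aligned reads were counted at SNPs with SAMtools and summed over the exons of each gene. The deposited values are maternal and paternal counts per gene. Reads that span more than 1 SNP enter the sum once per SNP, so counts are not independent molecules, and floors cover counting error only. The deposited tables of pooled allelic fractions and their intervals were not used.

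Groups came from the labels. QCC was fitted on counts thinned to equal totals, and AI was tested by a proportional test on QCC-corrected counts with Bonferroni correction at 0.05, leaving out genes under 10 counts in any library of the test. Intervals of AI are Wilson intervals, and those of a difference are Newcombe intervals. Abundance was tested on summed alleles with edgeR 4.0.16 (quasi-likelihood, TMM, Benjamini-Hochberg at 0.05), with DESeq2 1.42.0 as an alternative. R 4.3.3, Python 3.11.15, numpy 2.4.6, scipy 1.17.1 and pandas 2.3.3 were used. The procedures were tested on simulated data.

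The members and gene lists were chosen with earlier results of these data known. The text names all 8 members, listed genes called for AI or use of 1 allele, the most abundant segments of each clone and the 2 genes most like each member. B230118H07Rik, the imprinted genes, AI without QCC correction for the use of 1 allele, and the nearest autosomal genes were added after values were seen.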

Additional observations from a re-analysis of the deposited data

Results flagged for a closer look

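AI differed between the clones by the QCC-corrected test for 5 of the 8 genes, with Abl.2 minus Abl.1 at 0.117 for Ighm, -0.0712 for Vpreb1, -0.183 for Igll1, 0.187 for Blnk and -0.464 for Dntt. Among signalling genes the difference was -0.194 for Cd79b, -0.0682 for Vpreb2, -0.103 for Vpreb3, 0.537 for Lyn, -0.0467 for Plcg2, 0.589 for Pik3cd, 0.0766 for Cd22, 0.326 for Cd72, -0.419 for Bank1 and 0.531 for Prkcb. The calls for Plcg2, Cd22 and Bank1 were lost under several alternatives, Cd22 and Bank1 among them in the second run of Abl.2 (0.0607 and -0.316) and Plcg2 with the replicate block (edgeR adjusted p = 0.0592). Among recombination genes it was 0.185 for Xrcc5, -0.588 for Polm and 0.611 for Nbn. Among regulators it was -0.258 for Tcf3, -0.485 for Ikzf1, -0.0725 for Irf8, 0.150 for Spi1, 0.590 for Bach2, 0.146 for Runx1, -0.263 for Lef1 and -0.499 for Myb. It was -0.517 for B230118H07Rik, 0.277 for Ighg2b and 1 for Ighj3.

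In the kidney SMARTseq 100 pg group, 1 library stood apart from the other 5 for each of 4 genes, each time a different library. Igll1 was at 2.43 CPM in replicate 3, Cd79a at 0.907 in replicate 5, Rag1 at 0.454 in replicate 4 and Dntt at 0.907 in replicate 2. These values rest on 16, 6, 3 and 6 counts. Among 25 groups tested for such a sample, 4 were flagged, and chance flags about 1 in 20 for continuous values. For Rag1 and Dntt the other 5 libraries were all at 0, where any library with a count is flagged. That rate therefore does not apply to counts this low.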

How the results depend on the processing

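The AI differences called for Ighm, Vpreb1, Igll1, Blnk and Dntt kept their direction and their call under every alternative run. Genes called for abundance between the clones numbered 5794, and 3493 to 8397 when 1 clone library was left out, with 3733 without Abl.2 replicate 1 and 3493 without Abl.2 replicate 2. For AI against 0.5 in Abl.1, 2548 genes were called, 5753 without QCC correction, 4892 with Benjamini-Hochberg and 1631 to 1828 when 1 library was left out. In Abl.2 the counts were 3369, 6124 and 6009, and for the difference between clones 1909, 3870 and 3258. Use of 1 allele in Abl.1 was called for 811 genes and for 1301 without QCC correction. When 1 clone library was left out, the log2 fold change of Cd79a ran from -0.43 (without Abl.1 replicate 2) to 0.0389 (without Abl.1 replicate 1). In the same way the AI difference of Rag1 ran from -0.0352 to 0.0593, negative without Abl.1 replicate 2 and without Abl.2 replicate 2 (-0.0160), and that of Ighv1-84 from -0.00211 to 0.00553, negative without Abl.1 replicate 1 (-0.000858) and without Abl.2 replicate 2. None of these 3 was called in the fit reported. The cause was not tested.

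Without Abl.1 replicate 1 or 2 the log2 fold change was -0.38 and -0.74 for Vpreb1, and -0.26 and -0.59 for Igll1. It was -0.50 and -0.23 for Dntt, and 0.72 and 0.35 for Rag1. These fits take the spread between libraries from the Abl.2 pair alone, so their calls are not given. Cd79a in Abl.1 was no longer called against 0.5 without either library, nor was Dntt in Abl.2 without Abl.2 replicate 2. Rag1 and Rag2 in Abl.2 were called without QCC correction (Bonferroni-adjusted p = 0.00579 and 0.0120).

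Libraries of the clones share replicate numbers. The labels tie no number to a shared culture or day, and with 2 pairs the numbers were taken as names only. The deviations of same-numbered libraries correlated at 0.142 for abundance and 0.00801 for AI over 10068 genes. With the replicate block 5673 genes were called for abundance, Ighm no longer among them (edgeR adjusted p = 0.0579), and 2492 for AI by edgeR, against 2656 without it. With 80 Rag2 counts in Abl.1, depth limits what can be said of its paternal allele.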
